A study of Mus musculus with 6 samples.

Results

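Among the C1q-positive macrophages of MMTV-PyMT mammary tumors, 330 cells carried a program of Folr2 (folate receptor beta), Pf4 (the chemokine CXCL4), Ccl8 (a CC chemokine) and Cd209f (a lectin of the DC-SIGN family). They were 57 cells of the 60 min control library, 57 of the 15 min platform interval and 216 of the 60 min platform interval, out of 24527 deposited tumor cells and 58561 cells in the whole series. The cells were chosen by their own counts of unique molecular identifiers (UMIs, 1 per captured RNA molecule). A cell with 200 to 4000 genes and at most 25% mitochondrial UMIs was taken when it held at least 5 UMIs of C1qa, C1qb and C1qc, none of Cd3g and at most 1 of Pecam1. The sum of Ccl8, Folr2, Pf4 and Cd209f then had to reach 3 UMIs and to exceed both the sum of Cx3cr1 and Tmem119 and the sum of Il1a, Cd207 and Dcstamp. These cells are called Folr2 Pf4 cells here. The levels of the selecting genes, and all contrasts with the other macrophages, are descriptions of how the cells were selected and carry no test.

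The tumors came from 10-week-old MMTV-PyMT mice, in which the polyoma middle T oncogene is driven by the mammary tumor virus promoter and breast tumors arise in every group compared. Minced tissue was digested with type I collagenase, either in a tube with agitation for 60 min (control) or in a microfluidic platform from which cells were collected at a 15 min and then at a 60 min interval and passed once through a dissociation and filter device. Dead cells were removed by sorting on SytoxBlue, and each suspension gave 1 droplet library. The study states that the conditions of a replicate used tissue of the same mouse. With 1 library per condition, differences between conditions could not be set against replicates, no test was run, and all 95% intervals cover counting error only. A gene is described as higher or lower when its UMIs per 1000000 UMIs of the group (CPM) differed at least 2-fold. In a single library, fewer cells of a kind among those recovered and fewer in the tissue cannot be told apart.

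Macrophages with the mannose receptor Mrc1, the hyaluronan receptor Lyve1 and the haemoglobin scavenger receptor Cd163 are known to lie along vessels in many tissues. They take up debris and plasma proteins, secrete chemokines and complement proteins, and hold less MHC class II than antigen-presenting macrophages. Lyve1 and Cd163 were each detected in a minority of the Folr2 Pf4 cells, as given below. The place of the Folr2 Pf4 cells in the tissue was not measured. Tissue digestion is known to switch on immediate early genes, heat shock chaperones and inflammatory cytokines in macrophages.

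The 3 tumor libraries held 8152 to 8198 cells and 90414805 to 101222030 UMIs, of which 5736, 5802 and 6024 cells passed the limits on genes and mitochondrial UMIs in the control, the 15 min and the 60 min interval. All triples of values below are in that order. The Folr2 Pf4 cells held 666737, 609808 and 2436830 UMIs in all, and their medians of 11830, 12039 and 11592.5 UMIs per cell were close to each other. The median share of mitochondrial UMIs per cell was 4.35, 6.34 and 5.10%. Of 57 barcodes found in more than 1 tumor library, 2 belonged to Folr2 Pf4 cells, and no barcode was shared by a pair of them. No doublet caller was run.

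The 4 selecting genes were carried unevenly, and their presence follows from the rule. Folr2 was detected in 87.7, 89.5 and 75.5% of the cells, Pf4 in 91.2, 94.7 and 87.0%, and Ccl8 in 68.4, 78.9 and 92.6%. Mrc1, the 1 marker of the label that the selection did not use, was detected in 98.2, 89.5 and 93.1%. Cd209f was carried by a minority, 26.3, 36.8 and 33.8% of the cells. After each cell was thinned to 3000 UMIs the Folr2 share was 74.5, 79.6 and 57.2% and the Ccl8 share 58.2, 67.3 and 87.6%, with 2, 8 and 15 cells too shallow to enter. Free RNA gave far lower shares. In epithelial cells without C1q (medians of 9062, 9902 and 9644.5 UMIs), 0.795, 1.04 and 0.799% held Folr2, 0.477, 0.390 and 0.799% held Pf4, and 0.437, 1.07 and 2.56% held Ccl8.

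Ccl8 carried most of the selecting sum and was spread unevenly between cells. Its UMIs numbered 2356, 3432 and 18881, against 491, 694 and 1127 for Folr2 and 649, 1038 and 2783 for Pf4. The median cell held 6, 10 and 38 UMIs of Ccl8, while the highest cell held 437, 469 and 1041. The median of the whole selecting sum was 32, 46 and 55 UMIs. Only 5 cells stood at the threshold of 3 UMIs, and 10 cells with a sum of 2 met every other condition. The 5 cells inside held Mrc1 at 385 CPM and Folr2 at 165 CPM, and the 10 outside held them at 256 and 63.9 CPM. The condition on the competing programs mattered more. A further 54, 54 and 166 C1q cells reached 3 UMIs of the 4 genes but held as many or more UMIs of one of the competing sums, most often that of Cx3cr1 and Tmem119.

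By the rule above, Folr2 Pf4 cells were 3.61 times as frequent in the 60 min interval as in the control. The shares without Ccl8 in the rule are given below. They made up 0.994% (0.753 to 1.29) of the kept cells of the control, 0.982% (0.745 to 1.27) of the 15 min interval and 3.59% (3.13 to 4.09) of the 60 min interval, with exact binomial (Clopper-Pearson) intervals. The 60 min interval exceeded the control by 2.59 percentage points (Newcombe interval 2.06 to 3.14). The 15 min interval differed from the control by -0.0113 points (-0.379 to 0.355), a difference not detectable at this depth. The excess at 60 min was mostly of cells with at least 3 UMIs of Cx3cr1 and Tmem119, which numbered 21, 17 and 145. Cells without such a UMI numbered 28, 36 and 44. This division uses values of the rule and is described below. The C1q macrophages as a whole differed less in share, with 15.95, 16.2 and 23.3% of kept cells. Within them the Folr2 Pf4 share was 6.23% (4.75 to 7.996), 6.07% (4.63 to 7.79) and 15.4% (13.6 to 17.4). The 60 min interval was 9.18 points (6.67 to 11.6) above the control and 9.34 points (6.85 to 11.7) above the 15 min interval.

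The other macrophage programs, selected by their own sums, followed other orders. Cells led by Cx3cr1 and Tmem119 were 25.9, 70.5 and 43.7% of C1q cells, and cells led by Il1a, Cd207 and Dcstamp were 56.5, 14.4 and 34.5%. These sums compete for the same cells, so the shares are not independent. Leaving Ccl8 out of the selecting sum lowered the excess of the 60 min interval over the control from 9.18 to 3.74 points of C1q cells (1.59 to 5.79), and lifting the condition on the competing programs raised it to 15.1 points (11.9 to 18.2). Without Ccl8 the cells were 0.837, 0.913 and 2.09% of kept cells. Ccl8 was also highest at 60 min in cells outside the set. It stood at 20.7, 13.1 and 59.8 CPM in the Cx3cr1 Tmem119 cells and at 4.86, 2.58 and 37.4 in the Il1a Cd207 cells. In epithelial cells without C1q it was at 0.489, 1.12 and 2.68 CPM. The part of this in the shares was not tested.

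**Figure D1:**
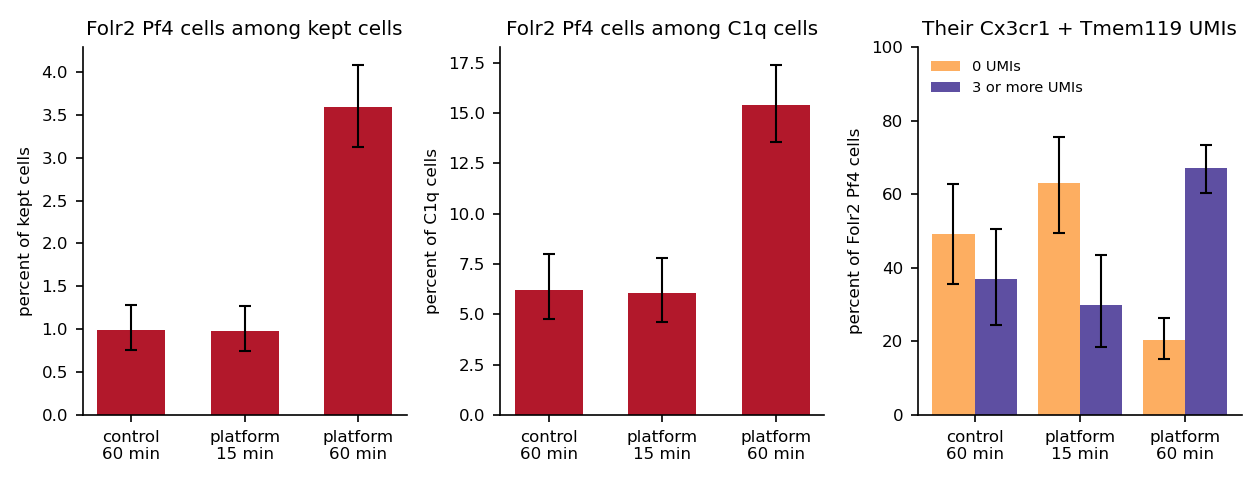
Share of Folr2 Pf4 cells in percent of kept cells (left) and of C1q cells (middle) in the 3 tumor libraries, and the percent of Folr2 Pf4 cells with no UMI or with 3 or more UMIs of Cx3cr1 and Tmem119 (right); bars are shares and whiskers exact 95% binomial intervals. The 60 min interval stands above both other libraries at 3.59% and 15.4%. Its share of cells with 3 or more UMIs of Cx3cr1 and Tmem119 is also the highest, at 67.1%.

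Genes listed for resident macrophages, scavenger receptors and complement were mostly higher in Folr2 Pf4 cells than in the other C1q macrophages, with the counts per list below. Against the cells led by Cx3cr1 and Tmem119, 132 of 2500 genes with enough counts were at least 2-fold higher in each of the 3 libraries (5.28%) and 40 were lower (1.6%). Against the cells led by Il1a and Cd207 the numbers were 149 of 2447 (6.09%) and 58 (2.37%). Without the 60 min interval, and so over the other libraries alone, 86 and 98 genes were lower. Under median-of-ratios scaling, 94 genes were higher and 91 lower than in the Il1a Cd207 cells. Because the same cells' counts made the selection, these numbers say how the groups were separated and no more.

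Of 20 genes listed for resident and perivascular macrophages, 13 had enough counts in the contrast with the Cx3cr1 Tmem119 cells, and 12 of them were higher in every library. Lyve1, the hyaluronan receptor, stood at 210.0, 410.0 and 91.9 CPM in Folr2 Pf4 cells and at 0.352, 0 and 0 in the Cx3cr1 Tmem119 cells. Cd163 stood at 268, 128 and 96.8 CPM against 0, 0.787 and 0.41. Both receptors were thus close to absent from the other macrophages of the same libraries. Each was also carried by a minority of the Folr2 Pf4 cells. A Lyve1 UMI was detected in 38.6, 45.6 and 20.4% of them and a Cd163 UMI in 40.4, 29.8 and 24.1%. F13a1, the A subunit of coagulation factor XIII, was at 1024, 1297 and 521 CPM against 12, 9.76 and 6.14, and Fcna, the secreted lectin ficolin A, at 256, 369 and 107 against 0.703, 0.472 and 1.23. The galactose lectin Clec10a was at 694, 884 and 461 CPM against 21.8, 25.7 and 26.5. Of 10 efferocytosis and bridging genes, 6 were tested, and 1 was higher and 0 were lower in every library. The median over these genes of the mean log2 ratio was -0.81. Gas6, the bridging ligand of the TAM receptors, was at 573, 759 and 497 CPM against 46.4, 38.6 and 54.2. Its receptors were not higher by 2-fold in every library, with Axl at 85.5, 60.7 and 189.6 CPM in Folr2 Pf4 cells and 197, 286 and 278 in the Cx3cr1 Tmem119 cells, and Mertk at 49.5, 42.6 and 91.9 and 35.9, 32.3 and 43.8.

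Uptake and complement genes showed the same separation in part. Of 13 scavenger and endocytic receptors, 9 were tested and 6 were higher in every library. Mrc1 was at 985, 1422 and 916 CPM against 59.4, 47.9 and 95.3, and Fcgrt, the neonatal Fc receptor that recycles albumin and IgG, at 849, 1186 and 673 against 74.6, 65.7 and 86.6. Scarb2, a lysosomal membrane protein of the same list, did not separate, with 142, 148 and 164 against 209, 225 and 208. Of 9 complement genes, 7 were tested, and 5 were higher and 1 was lower in every library. Against the Il1a Cd207 cells, 4 were higher and 1 was lower. C4b stood at 483, 633 and 371 CPM against 14.1, 18.3 and 39.6 and Cfp, the stabiliser properdin, at 561, 577 and 299 against 59.8, 44.9 and 47.9. The complement C1q genes, which all these cells were selected on, differed by less than 2-fold. Selenop, a secreted selenium carrier, was at 2759.7, 3168 and 2839 CPM against 837, 792 and 1129.

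Chemokines for monocytes and lymphocytes were the next group. Of 11 CC chemokines besides Ccl8, 9 were tested and 6 were higher in every library than in the Cx3cr1 Tmem119 cells. Against the Il1a Cd207 cells 5 were higher and 2 lower, the latter Ccl4 and Ccl5. Ccl2 was at 2965, 1732 and 3224 CPM against 401, 152 and 428 and Ccl7 at 4267, 1755 and 3399.9 against 241, 48.5 and 200.4. Ccl6 was at 2859, 3160.0 and 652 CPM against 74.2, 65 and 67.9. Ccl3 and Ccl4 were not among them, and Ccl3 stood at 375, 1035 and 3173 CPM against 938, 2042 and 2195.

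The genes lower in Folr2 Pf4 cells included those of antigen presentation and of the competing program. Of 10 MHC class II genes, 3 of the 7 tested were lower in every library than in the Cx3cr1 Tmem119 cells and 5 of 7 than in the Il1a Cd207 cells. H2-Ab1 stood at 4774, 1707 and 2914 CPM against 9628, 10154 and 8747 and 11856, 9674 and 10209. The integrin Itgax (CD11c) was at 24, 13.1 and 28.7 CPM against 138, 176 and 132. Il1b was at 1169.9, 267 and 1905 CPM against 6698, 4361 and 8929.9 in the Il1a Cd207 cells. Of 15 genes of lipid-associated macrophages, none of the 13 tested was higher or lower in every library than in the Cx3cr1 Tmem119 cells, and 2 (Ctsd and Ctsl, lysosomal proteases) were higher than in the Il1a Cd207 cells. Apoe was at 43464, 37810.3 and 51579 CPM against 47309.5, 51516 and 63843, and Trem2 at 487, 613 and 723 against 787, 789 and 891.

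**Figure D2:**
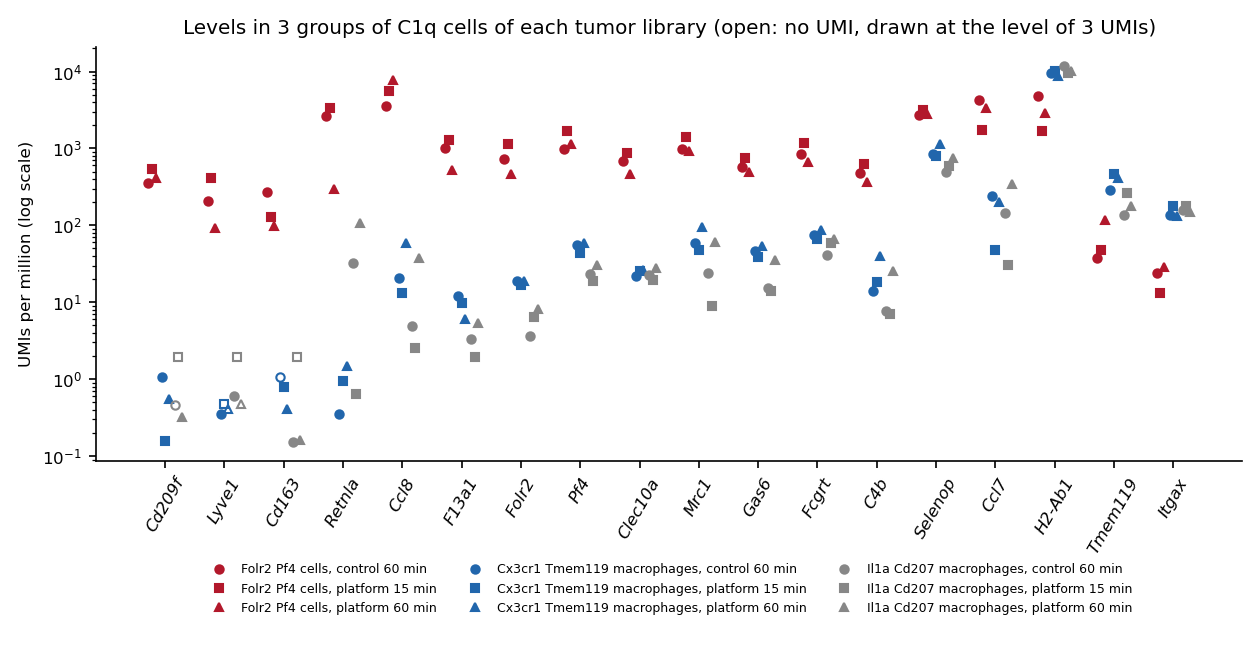
CPM (log axis) of 18 genes in Folr2 Pf4 cells, Cx3cr1 Tmem119 macrophages and Il1a Cd207 macrophages of the 3 tumor libraries; each point is 1 library's summed count and an open point is a library without a UMI, drawn at the level of 3 UMIs. Lyve1 reaches 91.9 CPM or more in Folr2 Pf4 cells and is 0.608 CPM at most in the other groups, while Itgax is 28.7 CPM at most in Folr2 Pf4 cells and 132 or more in the Cx3cr1 Tmem119 cells.

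The Folr2 Pf4 cells were not uniform, and their makeup differed between libraries. Cells without a UMI of Cx3cr1 or Tmem119 were 28 of 57 in the control (49.1%, 35.6 to 62.7), 36 of 57 at 15 min (63.2%, 49.3 to 75.6) and 44 of 216 at 60 min (20.4%, 15.2 to 26.4). Cells with at least 3 UMIs of these genes, while still led by the Folr2 sum, were 36.8, 29.8 and 67.1%. The rule compares these UMIs with a sum that Ccl8 dominates, and Ccl8 was highest at 60 min, so these shares rest on values the rule used and are a description. Median depth was alike, at 11902.5, 11902.5 and 11595 UMIs in the first kind and 12150, 12598 and 12090 in the second.

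Many other genes differed between these kinds, given here as a description since the cells were divided by their own counts. Of 2628 genes with enough counts, 68 were at least 2-fold higher in the cells without Cx3cr1 or Tmem119 in each library, and 55 were higher in the cells with 3 or more UMIs. Lyve1 was at 361, 657 and 389.9 CPM in the cells without and at 56.9, 9.89 and 10.7 in the cells with these UMIs. Cd163 was at 487, 199 and 342 CPM and 75.9, 4.94 and 35. Retnla, a secreted resistin-like protein of alternatively activated macrophages, was at 5269, 5348 and 1587 CPM and 224, 0 and 3.95, and Clec10a at 1129.8, 1290.0 and 1190.0 and 182, 227 and 253. Ccl6 was at 4452, 4855 and 2795 CPM and 626, 336 and 122. The monocyte chemokine receptor Ccr2 was at 334, 485 and 224 CPM and 91, 208 and 24.3. Lyve1, Cd163, Retnla and Ccr2 were thus all higher in the cells without Cx3cr1 or Tmem119 UMIs.

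The cells with Cx3cr1 or Tmem119 UMIs held the adhesion molecule Vcam1 at 523, 163 and 859 CPM, against 3.06, 0 and 56.7 in the cells without. Aif1, a macrophage calcium-binding protein, was at 759, 756 and 879 CPM against 254, 225 and 247. Axl was at 186, 163 and 235 CPM against 12.2, 7.95 and 31.7. In the macrophages led by Cx3cr1 and Tmem119, Vcam1 stood at 215, 248 and 330.4 CPM and Aif1 at 1029, 960.0 and 989. Both kinds carried the selecting genes. Pf4 stood at 1219, 2109 and 1625 and 721, 989 and 963 CPM, Mrc1 at 1252, 1759 and 1535 and 698, 865 and 719. Thinning to 3000 UMIs kept the difference in cells with a Lyve1 UMI, 46.4, 53.3 and 47.2% against 9.52, 0 and 1.40%.

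**Figure D3:**
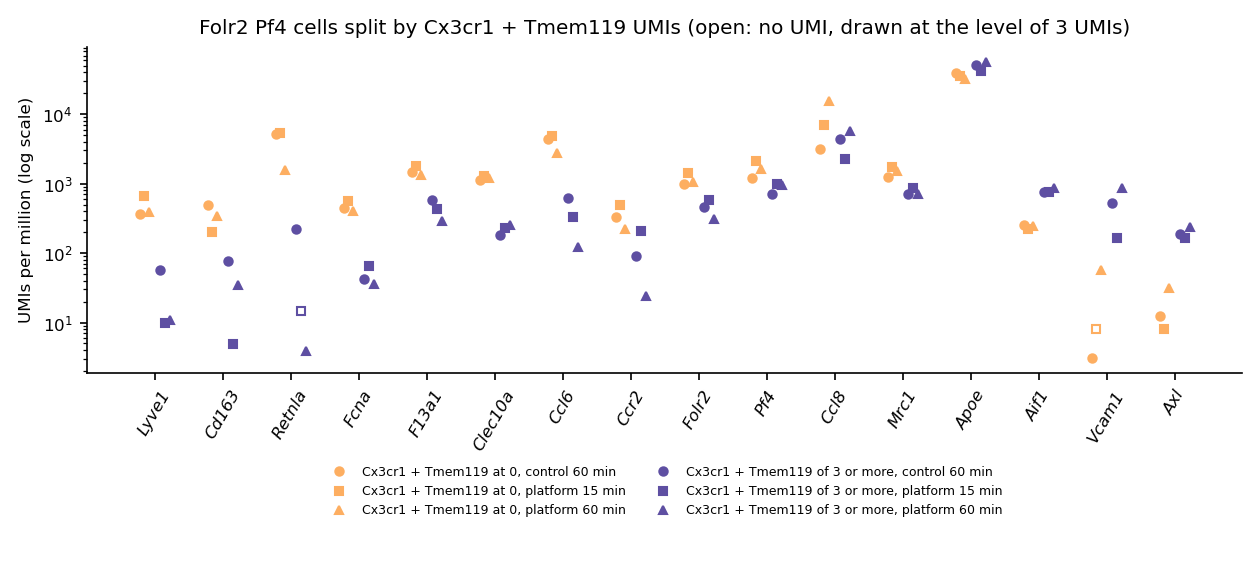
CPM (log axis) of 16 genes in Folr2 Pf4 cells without a UMI of Cx3cr1 or Tmem119 and in those with 3 or more, by library; an open point is a library without a UMI, drawn at the level of 3 UMIs. Lyve1, Cd163, Retnla, Fcna, Clec10a and Ccl6 lie higher in the first kind in every library, Aif1, Vcam1 and Axl in the second, and Apoe differs by less than 2-fold.

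The 3 libraries differed in immediate early, heat shock and inflammatory genes of the Folr2 Pf4 cells in several separate patterns. At 15 min against the control, 69 of 2611 genes were at least 2-fold higher (2.64%) and 229 lower (8.77%). At 60 min against the control, 79 were higher (3.03%) and 128 lower (4.9%). At 60 min against 15 min, 179 were higher (6.86%) and 88 lower (3.37%). The median log2 ratio over all 2611 genes was 0.07, -0.13 and -0.18 for these comparisons, and the ratios below are given without subtracting it. Scaling by the median of ratios over genes gave 39 higher and 286 lower at 15 min than in the control, and 231 higher and 58 lower at 60 min than at 15 min.

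A first set of genes was low in the control and high in both platform intervals, and it held some immediate early genes. Of 16 further immediate early and feedback genes, 4 were higher and 3 lower at 15 min than in the control (median log2 ratio -0.15), while 11 were higher and none lower at 60 min. Interferon-induced genes such as Cxcl10 and Rsad2, described below, also belonged to this set. Fos, a subunit of the AP-1 transcription factor, was at 768, 3327 and 3175 CPM, with log2 ratios to the control of 2.12 (1.97 to 2.26) at 15 min and 2.05 (1.92 to 2.18) at 60 min. Its partner Jun was at 678, 2958 and 3385 CPM. The zinc finger factor Egr1 was at 157, 1125 and 899 CPM and Ier2 at 190.5, 1048 and 565. The feedback phosphatase Dusp1 was at 543, 1361 and 1647 CPM, and Btg2, an antiproliferative gene, at 453, 1079 and 1112. Junb and Jund, of the same family, did not follow: Junb was at 3169, 2455 and 3668 CPM and Jund at 1738, 1549.7 and 2129. The highest single cell gave 31.4, 4.77 and 2.72% of the Jun UMIs of the 3 libraries, so that 1 cell weighed most in the control. Klf2, a transcription factor of the same early response, was at 450.0, 1548 and 2329 CPM, with 46.3, 6.78 and 2.4% of its UMIs from 1 cell. Epithelial cells without C1q held Fos at 2573, 2724 and 3277 CPM and Jun at 1925, 2621 and 2732. The part of epithelial RNA in the levels of these single genes was not tested. The summed stress genes without cells of 3 or more epithelial UMIs are given below.

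A second set held inflammatory genes that were low at 15 min and high in both 60 min libraries. Cxcl2, a chemokine for neutrophils, was at 6979, 938 and 7969 CPM, and Cxcl1 at 1314, 103 and 1198. The 15 min level of Cxcl1 was 12.7-fold below the control. Il10, the anti-inflammatory cytokine, was at 367, 8.2 and 167 CPM, from 245, 5 and 406 UMIs. The IL-1 receptor antagonist Il1rn was at 346, 34.4 and 303 CPM and Il1b at 1169.9, 267 and 1905. Ptgs2, the inducible cyclooxygenase, had 86, 1 and 331 UMIs, a log2 ratio of -6.30 (-11.62 to -3.78) at 15 min against the control. The EGF family ligand Hbegf had 150, 2 and 281 UMIs, with a ratio of -6.10 (-9.16 to -4.22). The transcription factor Maff was at 222, 11.5 and 201 CPM and the cAMP phosphodiesterase Pde4b at 196, 6.56 and 89.5. Of 10 cytokine genes, 5 of the 7 tested were lower at 15 min than in the control, and 6 of 7 were higher at 60 min than at 15 min. These cytokines included Il1a, a gene of a competing sum, which can turn a cell away from the set. With Il1a left out of that sum, the numbers of cells were 58, 57 and 231.

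Some further genes were also low at 15 min but were high in the control alone. Csf3, the granulocyte growth factor G-CSF, had 114, 0 and 23 UMIs, which puts the 15 min interval at least 34.8-fold lower than the control against a floor of 3 UMIs per library. Areg, another EGF family ligand, had 104, 0 and 29 UMIs and Cxcl3 had 93, 0 and 52. In the control, the highest cell for Areg gave 46.2% of its UMIs and the highest cell for Cxcl3 32.3%. The transcription factor Bhlhe40 was at 190.5, 14.8 and 25.4 CPM.

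The start regions of these genes are shown because Cxcl1, Cxcl2 and Cxcl3 were all lowest at 15 min and lie close together on chromosome 5. Sequences are from RefSeq on GRCm38.p6, given 5′ to 3′ on the strand of the gene, and capitals mark the letters searched for. The letters GGGANNTTCC, a form of the binding site of NF-kB, were searched for on both strands in the 250 bases before the start. They were found in 397 of 32851 such windows (1.21%). The matches on the 2 strands overlap, so that 11 letters are in capitals.

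Cxcl1, chr5:90891154-90891204, plus strand: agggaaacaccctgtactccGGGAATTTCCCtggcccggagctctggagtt
Cxcl2, chr5:90903782-90903832, plus strand: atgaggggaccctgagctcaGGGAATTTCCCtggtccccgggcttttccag
Cxcl3, chr5:90786008-90786058, plus strand: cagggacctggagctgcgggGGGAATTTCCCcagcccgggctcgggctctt

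The match begins 71, 97 and 73 bases before the start of Cxcl1, Cxcl2 and Cxcl3. Among the 8 genes of the CXC chemokine list with such a window (Cxcl3 is not in the list), 3 held the letters (Cxcl1, Cxcl2 and Cxcl10), and none of the 6 genes of the CC chemokine list with a window did. Cxcl10, unlike Cxcl1 and Cxcl2, was lowest in the control. The NF-kB letters were also found in 2 of 8 cytokine genes (Csf1 and Il6) and in 1 of 14 further early genes (Nfkbia). Of the 9 stress genes with a window, 0 held these letters and 0 held the element named next. Genes on 1 chromosome were left out of the counts per list. The cAMP response element TGACGTCA was found in 508 windows (1.55%) and in 3 of 14 further early genes (Btg2, Dusp1 and Ppp1r15a). Areg, in none of these lists, was added after its values were seen. The element lay before genes of different sets: Dusp1 and Btg2 were higher in both platform intervals than in the control, and Areg was highest in the control.

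Dusp1, chr17:26508588-26508635, minus strand: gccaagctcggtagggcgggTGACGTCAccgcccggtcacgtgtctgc
Btg2, chr1:134079294-134079341, minus strand: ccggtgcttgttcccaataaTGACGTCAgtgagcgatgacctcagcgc
Areg, chr5:91139518-91139565, plus strand: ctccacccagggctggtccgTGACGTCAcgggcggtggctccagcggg

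The element begins 143, 166 and 61 bases before the start of Dusp1, Btg2 and Areg and reads the same on both strands. These matches describe letters only and were not tested as binding sites.

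A further set held genes highest at the 60 min interval. The inducible chaperone gene Hspa1a was at 978, 531 and 4105 CPM, a log2 ratio of 2.07 (1.96 to 2.19) to the control and 2.95 (2.79 to 3.11) to 15 min. Its close copy Hspa1b was at 268, 109.9 and 1744 CPM, and reads shared between these near-identical genes may be divided or lost in counting. The small heat shock protein Hspb1 was at 13.5, 42.6 and 311 CPM, from 9, 26 and 759 UMIs. Gdf15, a secreted stress factor, was at 81, 6.56 and 776 CPM. The chemokines Ccl3 and Ccl4 were at 375, 1035 and 3173 and 922, 1348 and 6810.1 CPM, and Tnf at 154, 154 and 777.

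Some of these high values rested on few cells. Ccl5 had 13, 1 and 572 UMIs, and a single cell gave 53.8, 100.0 and 32.5% of them. Ccl22 had 66 UMIs at 60 min and none in the other libraries, 86.4% of them from 1 cell. The interferon-induced chemokine Cxcl10 was at 16.5, 312 and 689 CPM, and a single cell gave 54.5, 57.9 and 9.46% of its UMIs. Rsad2, an antiviral interferon gene, was at 52.5, 353 and 199 CPM, with 42.9, 57.2 and 20.2% of the UMIs from 1 cell. Of 10 interferon response genes, 3 of the 6 tested were higher in each interval than in the control.

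The summed level of the 12 stress genes that the study displays was 12863, 16458 and 25095 CPM. The log2 ratio to the control was 0.36 (0.31 to 0.40) at 15 min and 0.96 (0.93 to 1.00) at 60 min. The first ratio changed sign, to -0.30 (-0.44 to -0.16), when the cells with 3 or more UMIs of 10 epithelial genes were left out, which kept 15, 12 and 116 cells. The second was 1.11 without them. At 15 min, 3 of the 12 were higher than in the control (Egr1, Jun and Fos) and 2 lower (Gadd45b and Hsp90aa1), with a median log2 ratio of -0.12. At 60 min, 6 were higher and none lower.

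The other macrophages of the same libraries are set beside them. Fos stood at 1304, 4504 and 3363 CPM in the Cx3cr1 Tmem119 cells and at 728, 5327 and 2334 in the Il1a Cd207 cells. Cxcl2 stood at 3339, 1239 and 3065 CPM in the Cx3cr1 Tmem119 cells, Il10 at 129, 4.25 and 39.7 and Hspa1a at 1405, 680.2 and 4356. The summed 12 genes were at 12909, 22179 and 22840 CPM in the Cx3cr1 Tmem119 cells and at 10612, 24789 and 18974 CPM in the Il1a Cd207 cells, so that in the latter the 15 min interval stood above the 60 min interval. All 3 cell groups share the same libraries.

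**Figure D4:**
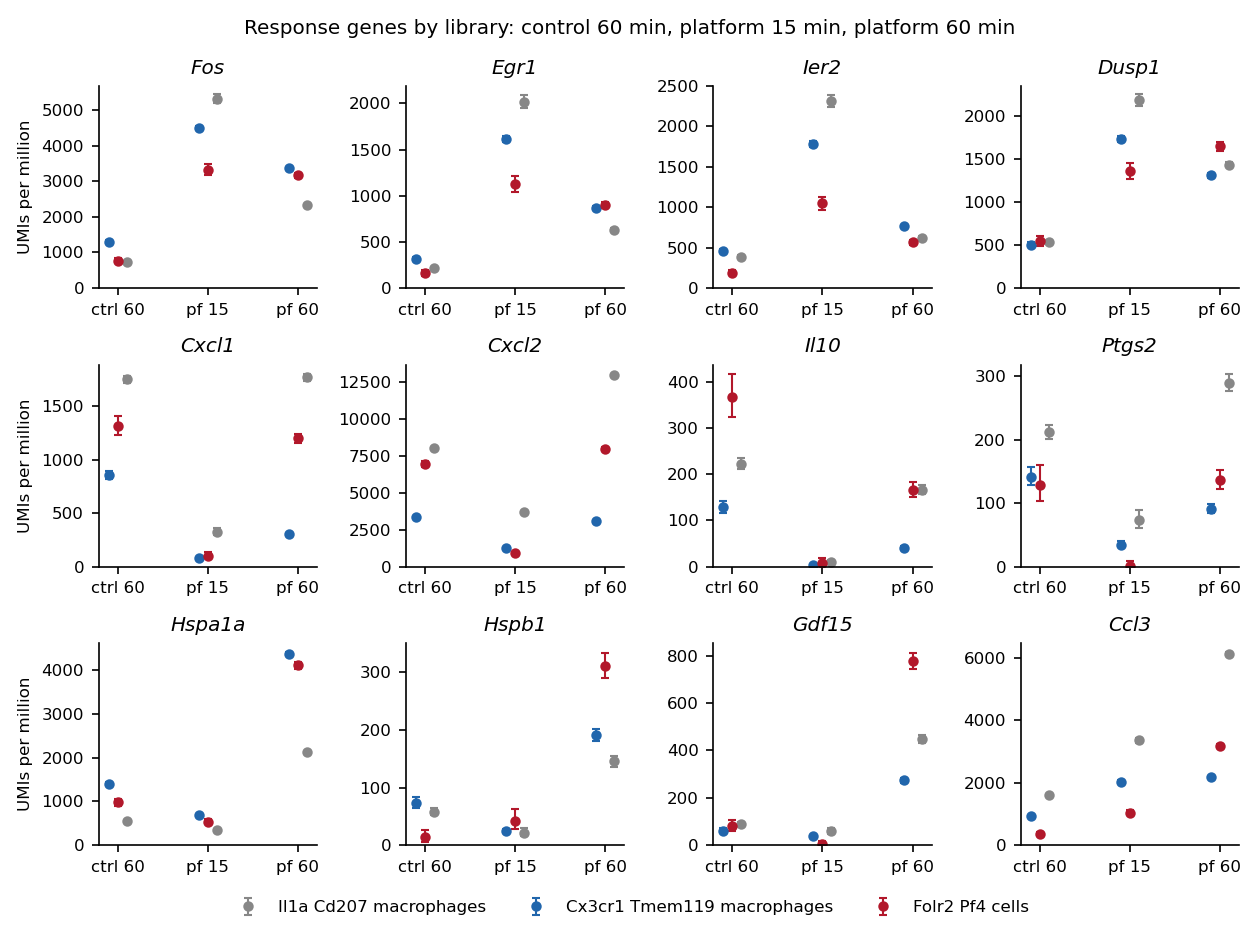
CPM (linear axis from 0) of 12 genes in Folr2 Pf4 cells, Cx3cr1 Tmem119 macrophages and Il1a Cd207 macrophages of the control (ctrl 60) and the platform intervals (pf 15, pf 60); points are summed counts of 1 library and whiskers exact 95% Poisson intervals. The top row is lowest in the control, the middle row lowest at 15 min and the bottom row highest at 60 min in Folr2 Pf4 cells.

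The tested genes of the monocyte list and some chemokines went the other way and were lowest at the 60 min interval. The origin of the cells was not tested. Of 10 monocyte genes, 3 had enough counts, and all 3 were lower at 60 min than in either other library. Fn1, the matrix protein fibronectin, was at 574, 495 and 62 CPM, S100a4 at 315, 472 and 69.4 and Ccr2 at 273, 379 and 61.6. The summed monocyte list was 1242, 1441 and 236 CPM. Ly6c2, the marker of classical monocytes, had only 1, 1 and 1 UMIs. Retnla was at 2674, 3311 and 293 CPM, a log2 ratio of -3.19 (-3.32 to -3.07) to the control, and a single cell gave 23.7, 32.2 and 35.9% of its UMIs. Lyz1 was at 463, 316 and 36.1 CPM, with 56.3, 36.3 and 37.5% of the UMIs from 1 cell. Ccl6 was at 2859, 3160.0 and 652 CPM and Ednrb, an endothelin receptor, at 258, 562 and 108.

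Cells without Cx3cr1 or Tmem119 UMIs were also the smallest share at 60 min, and the part of this in the values above was not tested. In the cells without such UMIs, the summed monocyte list was 1868, 1714 and 775 CPM, and in the cells with 3 or more it was 402, 746 and 115 CPM. Fn1 was at 931, 493 and 129 CPM in the first kind and at 156, 282 and 49.1 in the second, and S100a4 at 508, 593 and 301 and 110.0, 247 and 16.9. Lyve1, given above for both kinds, was lowest in the control in the first kind and highest there in the second.

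MHC class II genes were lowest at 15 min. Their summed level was 24524, 11423 and 17415 CPM, and 4 of the 7 tested were at least 2-fold lower at 15 min than in the control. H2-Aa was at 3719.6, 1563 and 2607 CPM and Cd74, the invariant chain, at 13251, 6115 and 9234. In the Cx3cr1 Tmem119 cells the sum was 48338, 53651 and 47559 CPM. In the Folr2 Pf4 cells without Cx3cr1 or Tmem119 UMIs it was 21161, 9965 and 10735 CPM, and in those with 3 or more it was 26022, 15128 and 19658 CPM.

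Of 13 scavenger and endocytic receptors, 10 were compared between libraries, with 1 higher and 1 lower at 15 min than in the control and 2 lower at 60 min. Their summed level was 3681, 5326 and 3473 CPM. Stab1, a scavenger receptor of resident macrophages, was at 291, 613 and 452 CPM, and Dab2, an endocytic adaptor, at 535, 874 and 710.3. Of 10 iron and heme genes, 7 were tested, and none was 2-fold higher or lower at 60 min than in the control. The heme oxygenase gene Hmox1 was at 1006, 666 and 923 CPM. Igf1, a growth factor, was at 55.5, 100.0 and 116 CPM and Pdgfc at 46.5, 80.4 and 57.5. Cell cycle genes summed to 46.5, 67.2 and 89.5 CPM for 10 genes, against 259, 221 and 173 CPM in the Cx3cr1 Tmem119 cells.

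Among markers of other cell types, the monocyte list above and the epithelial list stood highest. The summed platelet list, of interest since Pf4 is also a platelet protein, was 3.28 CPM at most in any library over 6 genes, with Gp1bb at 0. The 8 T cell genes summed to 19.5, 36.1 and 3.69 CPM with Cd3e at 0, and the 7 endothelial genes to 6.00, 8.20 and 13.5 CPM. The 10 dendritic cell genes summed to 47.99, 29.5 and 78.8 CPM with Clec9a and Itgae at 0, and the 7 granulocyte genes to 87.0, 31.2 and 46.8 CPM. In the cells without Cx3cr1 or Tmem119 UMIs the dendritic cell genes summed to 70.4, 34.4 and 304 CPM. In the cells with 3 or more of those UMIs they summed to 26.6, 19.8 and 28.2 CPM. Fibroblast genes summed to 19.5, 37.7 and 87.4 CPM, higher at the 60 min interval. The 10 epithelial genes summed to 390, 1156 and 715 CPM, higher in both platform libraries than in the control, beside the early genes. In the cells without Cx3cr1 or Tmem119 UMIs the epithelial genes summed to 404, 1608 and 2439 CPM. In the cells with 3 or more of those UMIs they summed to 368, 420 and 331 CPM. Wfdc18, a milk whey protein, was at 145, 544 and 386 CPM, and a single cell gave 6.19, 68.1 and 75.6% of its UMIs. In epithelial cells of the same libraries Wfdc18 stood at 11842 CPM in the control. The part of epithelial RNA in the other results was not tested beyond leaving out the cells above.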

How the data were processed

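Single-cell suspensions of MMTV-PyMT mammary tumors were profiled by droplet 3' sequencing (10x v3 chemistry). The deposited values are raw UMI counts per gene and cell, which the authors made with Cell Ranger and joined with its aggregation step, which evens read depth between libraries. Per the submitters' processing notes this was Cell Ranger 3.1.0 with the mm10 genome. Libraries were read from barcode suffixes through the deposited aggregation table, and 0 columns of per-sample values were left unused.

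UMI counts were summed over cells of a group and library and divided by the sum of all genes (CPM). A gene was compared when its mean was at least 50 CPM with at least 30 UMIs, was called at a 2-fold difference, and a library at 0 was set to 3 UMIs. Against another program, a call needed 3 of 3 libraries. Shares have exact binomial intervals, differences Newcombe intervals, levels exact Poisson intervals and ratios exact conditional intervals. With 1 library per condition no test was run. The sums, filter, fold call and ratio interval were tested on simulated Poisson counts. The simulated cells shared 1 profile, so the simulation does not cover genes whose UMIs come mostly from 1 cell. No doublet caller was run. Doublets were limited by the 4000 gene maximum and the Cd3g and Pecam1 limits, cells with epithelial UMIs were left out only in an alternative, and cells were not clustered. The members and gene lists were chosen with earlier results of these data known. Genes named are those of the lists, the 10 largest folds in each direction of each pair of libraries and the 15 largest against each program, without Gm, Rik, mitochondrial and ribosomal genes. Promoter windows are from RefSeq. Python 3.11.15, numpy 2.4.6, pandas 2.3.3, scipy 1.17.1 and matplotlib 3.10.9 were used.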

Additional observations from a re-analysis of the deposited data

Results flagged for a closer look

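Ratios that went in opposite directions in the Folr2 Pf4 cells and in the Cx3cr1 Tmem119 cells of the same libraries were picked out, and none of these differences was tested. Hspb1 had a log2 ratio at 15 min over the control of 1.66 in the Folr2 Pf4 cells, from 26 and 9 UMIs, and of -1.58 in the Cx3cr1 Tmem119 cells, from 157 and 210 UMIs. Lcn2, a secreted siderophore-binding protein, had a log2 ratio at 60 min over the control of 1.12, from 484 and 61 UMIs, against -1.03, from 1290 and 1026 UMIs. A single cell gave 47.9% of the Lcn2 UMIs of the Folr2 Pf4 cells at 60 min. The chemokine Ccl24 had a log2 ratio at 60 min over the control of -1.77, from 139 and 130 UMIs, against at least 2.14 in the Cx3cr1 Tmem119 cells, from 34 and 0 UMIs and a floor of 3 UMIs in the control.

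The kidney libraries, which enter no comparison here, also held cells that meet the same rule within the kidney limits of 3000 genes and 50% mitochondrial UMIs. The control held 147, the 15 min interval 18 and the 60 min interval 269 of them, or 18.0, 13.6 and 18.3% of kidney C1q cells. These cells were led by Pf4, at 960, 961 and 1097 CPM, while Folr2 was at 4.61, 0 and 27.4 CPM and Cd209f at 0, 0 and 22.04 CPM, so the kidney cells met the rule mostly without Folr2.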

How the results depend on the processing

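The log2 ratio of the summed 12 stress genes at 15 min over the control (0.36) changed sign under 1 alternative with an interval that leaves out 0. The 15 min minus control differences in share, near 0 throughout, ranged from -0.258 to 0.0767 points of kept cells and from -1.93 to 0.398 points of C1q cells, and the numbers of genes past 2-fold moved most with the minimum level. The share of Folr2 Pf4 cells was higher at 60 min than in the control under every alternative run, and the 15 min share never differed from the control beyond its interval. The last settings, from the one with no condition on the competing sums onward, were chosen after the data were seen. With a selecting sum of at least 2 UMIs, the stress ratio 60 min over 15 min was 0.656. With no upper limit on genes per cell, the stress ratio 15 min over the control was 0.14, the stress ratio 60 min over the control was 0.824 and the stress ratio 60 min over 15 min was 0.684. With at most 10% mitochondrial UMIs, the stress ratio 15 min over the control was 0.413 and the stress ratio 60 min over 15 min was 0.548. With every cell thinned to 3000 UMIs before selection, 242 genes were higher and 349 lower at 15 min than in the control, the stress ratio 15 min over the control was 0.293 and 147 genes were higher and 257 lower at 60 min than in the control. 210 genes were lower at 60 min than at 15 min and the stress ratio 60 min over 15 min was 0.648 under the same setting. Without the cells of 3 or more epithelial UMIs, the excess share of kept cells at 60 min, in points, was 1.66, 345 genes were higher and 461 lower at 15 min than in the control and the stress ratio 15 min over the control was -0.30. 160 genes were higher at 60 min than in the control, the stress ratio 60 min over the control was 1.11 and 351 genes were higher and 325 lower at 60 min than at 15 min under the same setting. The stress ratio 60 min over 15 min was 1.41 under the same setting. Under median-of-ratios scaling, 39 genes were higher at 15 min than in the control, the stress ratio 15 min over the control was 0.18 and 58 genes were lower at 60 min than at 15 min. The stress ratio 60 min over 15 min was 0.811 and 94 genes were higher and 91 lower than in the Il1a Cd207 cells under the same setting. With the mean over cells of CPM per cell, the stress ratio 60 min over 15 min was 0.649. With a minimum mean of 100 CPM, 32 genes were higher and 120 lower at 15 min than in the control, 66 genes were lower at 60 min than in the control and 105 genes were higher and 53 lower at 60 min than at 15 min. 85 genes were higher and 22 lower than in the Cx3cr1 Tmem119 cells and 91 genes were higher than in the Il1a Cd207 cells under the same setting. With no minimum CPM and at least 10 UMIs, 1395 genes were higher and 875 lower at 15 min than in the control, 1125 genes were higher and 662 lower at 60 min than in the control and 935 genes were higher and 868 lower at 60 min than at 15 min. 411 genes were higher and 176 lower than in the Cx3cr1 Tmem119 cells and 550 genes were higher and 177 lower than in the Il1a Cd207 cells under the same setting. Over the other libraries without the 60 min interval, 86 genes were lower than in the Cx3cr1 Tmem119 cells and 98 genes were lower than in the Il1a Cd207 cells. With no condition on the competing sums, the excess share of kept cells at 60 min, in points, was 4.41, the excess share of C1q cells at 60 min, in points, was 15.1 and the stress ratio 15 min over the control was 0.633. 65 genes were lower at 60 min than in the control, 46 genes were lower at 60 min than at 15 min and the stress ratio 60 min over 15 min was 0.344 under the same setting. 58 genes were higher and 4 lower than in the Cx3cr1 Tmem119 cells and 74 genes were higher and 26 lower than in the Il1a Cd207 cells under the same setting. With Ccl8 left out of the selecting sum, the excess share of kept cells at 60 min, in points, was 1.25, the excess share of C1q cells at 60 min, in points, was 3.74 and the stress ratio 15 min over the control was 0.416. The stress ratio 60 min over the control was 1.07 and the stress ratio 60 min over 15 min was 0.651 under the same setting. With the highest cell of each gene left out, the stress ratio 15 min over the control was 0.413 and the stress ratio 60 min over 15 min was 0.568. In the cells without Cx3cr1 or Tmem119 UMIs, 169 genes were higher at 15 min than in the control, the stress ratio 15 min over the control was 0.432 and 134 genes were higher at 60 min than in the control. The stress ratio 60 min over the control was 0.784 and the stress ratio 60 min over 15 min was 0.352 under the same setting. In the cells with 3 or more of those UMIs, 126 genes were higher at 15 min than in the control, the stress ratio 15 min over the control was 0.227 and the stress ratio 60 min over the control was 0.901. The stress ratio 60 min over 15 min was 0.674 under the same setting. The causes of these differences were not tested. Leaving out a library left 140, 147 and 193 genes higher than in the Cx3cr1 Tmem119 cells and 40 to 86 lower, and 158 to 216 higher than in the Il1a Cd207 cells and 66 to 98 lower. No paired analysis was possible because each condition had 1 library. With 57 cells in the control and at 15 min, counts of a few UMIs and values carried by 1 cell limit what can be compared.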
